A study of Homo sapiens with 12 samples.

Results

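The epithelial oxidant genes described here are NOX1, NOXO1, NOXA1, CYBA, DUOX2, DUOXA2 and GPX2, which encode the NADPH oxidases of the gut lining, their partner subunits and a glutathione peroxidase. They are 7 of the 54553 genes in each deposited per-sample table, taken by their names, and all 7 were among the 18047 genes that passed the filter on low counts. They were chosen with their measured levels in these same 12 libraries known, so their levels and fold changes below are a description and support no further statement. Every sample was Caco-2, an established human colorectal adenocarcinoma line that takes on features of enterocytes in culture, labelled as wild type and sub-confluent at treatment. The 12 RNA-seq libraries formed 4 groups of 3. In the depleted bafilomycin A1 (BafA1) group, cells spent 48 h in medium with 0.1 g/L glucose, 0.2 mM glutamine and 1% serum together with 100 nM BafA1, a macrolide that blocks the vacuolar proton pump and so the acidification of lysosomes. The depleted vehicle group had the same medium without the drug, and the rich BafA1 group had 100 nM BafA1 for 48 h in medium with 1 g/L glucose, 2 mM glutamine and 20% serum. The rich vehicle group had that medium and vehicle. The rich medium is taken to be the growth medium of the labels, which do not name the vehicle. Pyruvate and non-essential amino acids were present in both media, but the base medium differed (DMEM without glucose and glutamine for depletion, EMEM for the rich medium), as did the serum, so glucose, glutamine, serum and base medium cannot be told apart.

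NADPH oxidases carry electrons from NADPH across a membrane to oxygen. NOX1, the form abundant in colon epithelium, makes superoxide, and it works as a complex with the membrane subunit CYBA, the organizer NOXO1, the activator NOXA1 and the GTPase RAC1. DUOX2 makes hydrogen peroxide at the apical surface of gut and thyroid epithelium and needs the maturation factor DUOXA2 to leave the endoplasmic reticulum. GPX2 is a selenium-dependent peroxidase of the gastrointestinal epithelium that reduces hydroperoxides with glutathione, and its gene is a known target of the oxidative stress regulator NRF2.

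In the RefSeq annotation of GRCh38.p14, DUOX2 and DUOXA2 are neighbours on chromosome 15. DUOX2 (chr15:45092650-45114172, minus strand) and DUOXA2 (chr15:45114326-45118421, plus strand) point away from each other with 153 bases between the genes. That shared stretch is shown because the pair is described together below. It is written on the plus strand of GRCh38.p14 from chr15:45114173-45114325, with a TATA box (TATAAA) in capitals 32 bases before the DUOXA2 start.

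DUOX2-DUOXA2 gap: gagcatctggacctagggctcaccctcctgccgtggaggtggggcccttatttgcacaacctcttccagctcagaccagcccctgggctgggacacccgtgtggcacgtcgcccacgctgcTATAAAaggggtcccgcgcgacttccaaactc

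TATAAA on either strand was present in 6.82% of 35116 RefSeq promoter windows of 153 bases. The 250 bases before the start of NOX1 (chrX:100874360-100874609, minus strand) are shown because intestinal transcription factors are among the gene lists described below. In capitals are TTTATG, a site of the CDX type, 162 bases before the start, and GATAAG, a site of the GATA type, 100 bases before it.

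NOX1 upstream: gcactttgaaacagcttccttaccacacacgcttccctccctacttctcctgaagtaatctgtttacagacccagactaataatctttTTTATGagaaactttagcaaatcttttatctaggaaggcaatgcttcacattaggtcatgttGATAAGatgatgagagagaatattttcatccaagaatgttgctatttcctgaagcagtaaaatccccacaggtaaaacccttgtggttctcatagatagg

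Of 35116 windows of 250 bases, 9.64% held TTTATG and 5.65% held GATAAG on either strand. The same stretch of GPX2 (chr14:64942746-64942995, minus strand) is shown because the NRF2 target list is described below. The capitals mark a match on the opposite strand to the antioxidant response element searched as TGACNNNGC, 122 bases before the start.

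GPX2 upstream: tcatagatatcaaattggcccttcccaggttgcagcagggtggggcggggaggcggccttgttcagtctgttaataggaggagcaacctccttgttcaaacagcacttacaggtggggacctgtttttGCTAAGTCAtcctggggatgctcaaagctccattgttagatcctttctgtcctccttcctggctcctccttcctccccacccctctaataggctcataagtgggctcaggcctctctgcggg

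TGACNNNGC was found on either strand in 10.9% of the 250-base windows. These matches describe letters only, since the data hold no measurement of binding. The full loci are NOX1 (chrX:100843324-100874359, minus strand), CYBA (chr16:88643289-88651053, minus strand), NOXO1 (chr16:1978917-1981469, minus strand), NOXA1 (chr9:137423393-137434406, plus strand) and GPX2 (chr14:64939158-64942745, minus strand).

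Depth ranged from 12969814 to 51649213 assigned reads a library. The shallowest was rich vehicle replicate 1, and the other 11 held at least 33859998. That library, which correlated with the mean of its group mates at 0.953 against 0.971 and 0.972, and replicate 3 of the rich BafA1 group, with 0.982 against values of 0.9875 and 0.9885 for the rest of its group, stood apart within their groups. The value of 0.982 was still above the 0.971 and 0.972 of the other rich vehicle libraries. Calls among the named genes that were lost or gained without them are said beside the result. Gene length minus effective length, which grows with fragment length, had a median of 178, 189 and 201 bases in the depleted BafA1 libraries, 206 to 227 in 8 others and 272 in the shallow library. Of 8 epithelial markers, 7 exceeded 1 TPM, the deposited level per transcript length and library size, in all libraries, with LGALS4 the exception. Their summed level was 1402 to 2071 TPM in depleted BafA1 cells, 2669 to 2760 in depleted vehicle cells, 3096 to 4470 in rich BafA1 cells and 5031 to 7943 in rich vehicle cells. Summed fibroblast markers (6 genes) were between 4.23 and 13.3 TPM, and summed leukocyte markers (7 genes) between 3.87 and 23 TPM, with MS4A1 at 0 in every library. The fibroblast sum does not describe each gene in it. PDGFRB was at 0.458 to 1.08 TPM in depleted BafA1 cells and 2.34 to 4.12 in depleted vehicle cells. In rich medium it was at 0.967 to 1.73 TPM with BafA1 and 0.612 to 1.77 with vehicle. The labels do not say that the replicates were separate cultures, so p-values measure the spread between these samples only, which may be technical.

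**Figure D1:**
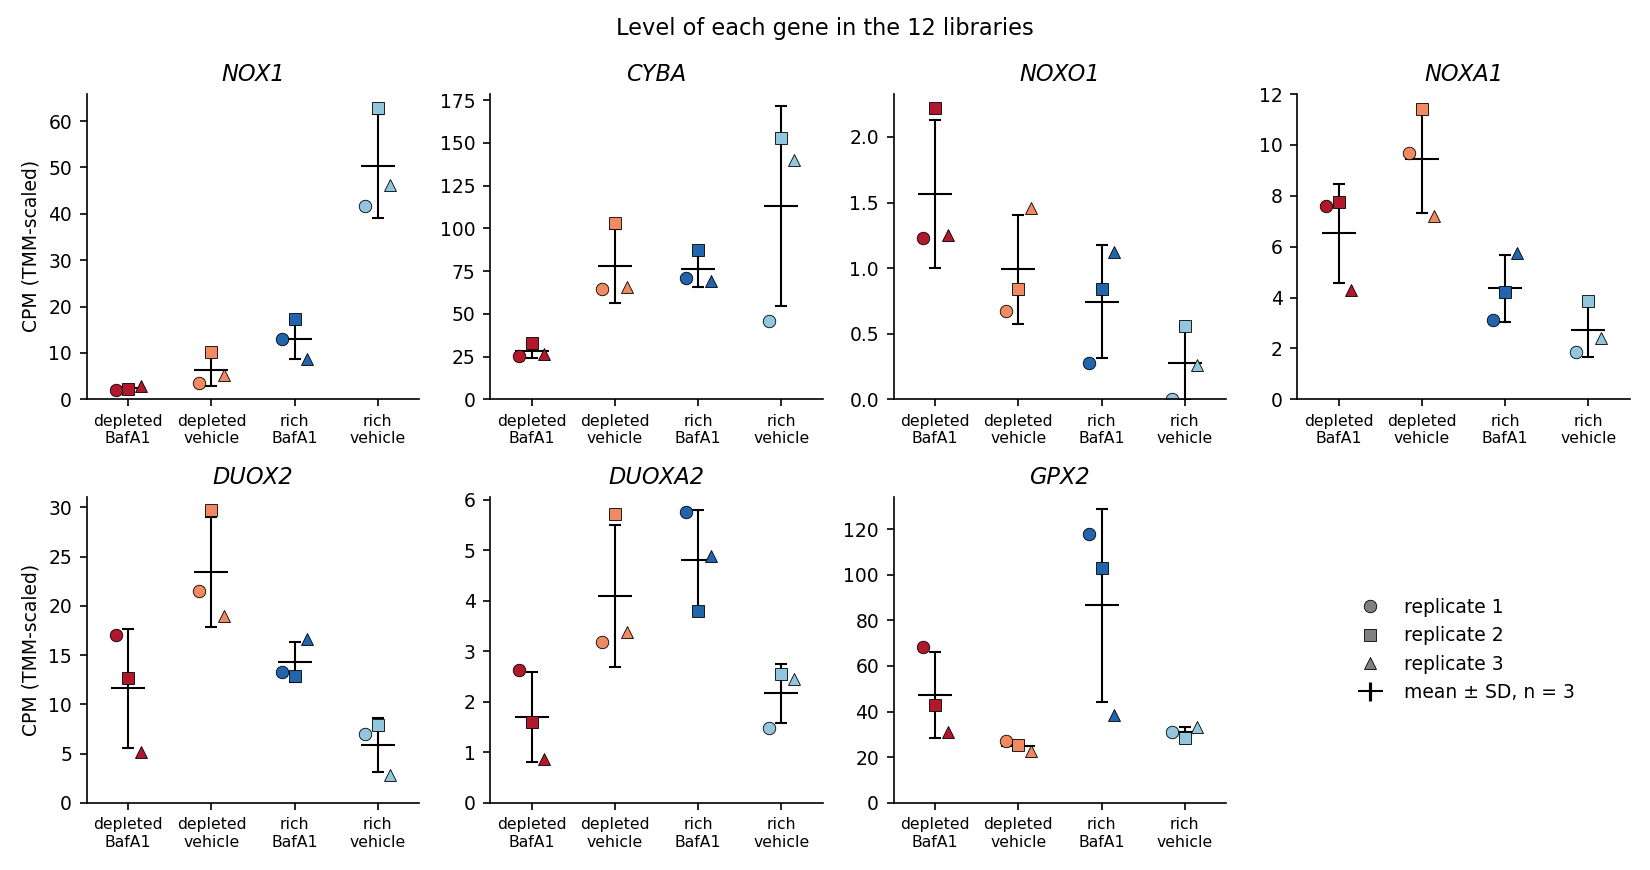
Level of each gene in CPM (reads relative to library size, linear axes) in the 4 groups of 3 libraries, with 1 point per library and the mean ± SD. NOX1 averaged 2.4 CPM in depleted BafA1 cells and 50.3 in rich vehicle cells, while DUOX2 was highest in depleted vehicle cells and GPX2 in rich BafA1 cells.

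NOX1, the catalytic subunit, was lowest in depleted BafA1 cells and highest in rich vehicle cells. Levels between libraries are given in CPM, reads relative to library size scaled by trimmed mean of M-values (TMM) factors. NOX1 had 2.06, 2.22 and 2.92 CPM in depleted BafA1 cells, 3.56, 10.3 and 5.33 CPM in depleted vehicle cells and 12.9, 17.4 and 8.79 CPM in rich BafA1 cells, against 41.6, 62.9 and 46.3 CPM in rich vehicle cells. Every library of the other 3 groups lay below the lowest rich vehicle library, and every depleted BafA1 library lay below every depleted vehicle library. Only the depleted vehicle and rich BafA1 groups overlapped. The log2 fold change was -1.95 ± 0.33 (SE) for BafA1 over vehicle in rich medium, -2.98 ± 0.35 for depleted over rich medium without drug, -1.41 ± 0.35 for BafA1 over vehicle in depleted medium and -2.45 ± 0.35 for depleted over rich medium under BafA1, all called. A call, or passing the threshold, means a Benjamini-Hochberg adjusted p under 0.05 in edgeR's quasi-likelihood test over all genes. Its BafA1 response differed by 0.53 ± 0.47 between the media, depleted minus rich, which did not pass the threshold and does not show the responses to be alike. Leaving out replicate 2 of the depleted vehicle group, the highest of its group at 10.3 CPM, brought the depleted-medium BafA1 response to -0.89 and ended its call, as did leaving out replicate 1 (-1.31) or 2 (-1.36) of the depleted BafA1 group. The NOX1 counts rested on 94 to 2372 reads per library. The pseudogene HNRNPA1P26, which lies within the NOX1 span, had at most 17 reads in any library. The summed epithelial markers followed the same order of groups as NOX1. Most of that sum was keratin, with KRT8 at 3492 ± 623 TPM and KRT18 at 1650 ± 390 TPM in rich vehicle cells (SD, n = 3). Mean CPM of KRT8, KRT18, KRT19 and EPCAM followed the order, but that of CDH1, VIL1, CDX2 and LGALS4 did not. CDH1 was at 1395 ± 275 CPM in depleted BafA1 cells and 1392 ± 503 CPM in rich vehicle cells. The part of the markers in the NOX1 differences was not tested. In bulk RNA, fewer cells with the transcript and less of it per cell cannot be told apart.

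CYBA, which forms the membrane heterodimer with NOX1 and other oxidases, had the highest level per transcript length of the 7 in rich vehicle cells and was lowest in depleted BafA1 cells. It had 25.1, 33 and 26.4 CPM in depleted BafA1 cells, 64.7, 103 and 65.8 CPM in depleted vehicle cells and 71.1, 87.5 and 69.3 CPM in rich BafA1 cells, against 45.8, 153 and 140 CPM in rich vehicle cells. The 3 depleted BafA1 libraries lay below all 9 others, while the other 3 groups overlapped. BafA1 over vehicle in depleted medium gave a log2 fold change of -1.47 ± 0.34, and depleted over rich medium under BafA1 gave -1.43 ± 0.34. In rich medium the BafA1 value was -0.58 ± 0.33, and without drug the depletion value was -0.54 ± 0.33, neither past the threshold. Without the shallow rich vehicle replicate 1, the lowest of its group at 45.8 CPM, these became -0.95 and -0.91 and passed. In TPM that library was also the lowest of its group, at 162, against 335 for replicate 2 and 180 for replicate 3. Both values also passed with no low-count filter (-0.58 and -0.56) and without both libraries that stood apart (-0.88 and -0.91). The depleted-medium BafA1 call for CYBA was lost without replicate 2 of the depleted vehicle group (-1.21) or without replicate 1 (-1.39) or 3 (-1.42) of the depleted BafA1 group. Summed epithelial markers were also lowest in the depleted BafA1 libraries. Of the 8 markers 4 fell there against depleted vehicle, where 5.91% of all genes fell, with KRT8 at -1.38 ± 0.22 and KRT18 at -1.04 ± 0.19. CDH1, at -0.21 ± 0.25, was not called. The part of the epithelial markers in the CYBA value was not tested. That count of 4 became 2 without replicate 2 or 3 of the depleted BafA1 group.

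Of the cytosolic partners, NOXA1 was higher in depleted vehicle cells than in rich vehicle cells. NOXA1, the activator that binds NOX1 and RAC1, had 7.58, 7.74 and 4.29 CPM in depleted BafA1 cells, 9.67, 11.4 and 7.22 CPM in depleted vehicle cells and 3.12, 4.2 and 5.76 CPM in rich BafA1 cells, against 1.86, 3.87 and 2.41 CPM in rich vehicle cells. All depleted vehicle libraries lay above all rich vehicle libraries, and the log2 fold change of depletion without drug was 1.77 ± 0.34. Adjacent groups in its order of levels overlapped, and its BafA1 values were 0.65 ± 0.33 in rich and -0.53 ± 0.32 in depleted medium, neither past the threshold. Depletion under BafA1 gave 0.59 ± 0.32, also short of it, with overlapping groups. NOXA1 shares 43 bases with ENTPD8 on the opposite strand, and ENTPD8 itself was higher in depleted vehicle than in rich vehicle cells (log2 2.13, adjusted p = 0.0022 in edgeR's quasi-likelihood test).

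NOXO1, the organizer that ties the complex to the membrane, had low counts, nearest the detection limit in rich vehicle cells. It had 67, 94 and 42 reads in the depleted BafA1 libraries (1.23, 2.22 and 1.25 CPM), 33, 30 and 54 reads in depleted vehicle libraries (0.671, 0.838 and 1.46 CPM) and 12, 41 and 42 reads in rich BafA1 libraries (0.274, 0.84 and 1.12 CPM), against 0, 21 and 10 reads in rich vehicle libraries (0, 0.557 and 0.262 CPM). The 0 came from the shallow library, where 3 reads, the limit that a count of 0 allows, equal 0.223 CPM, a limit that covers counting error only. Neighbouring groups overlapped throughout. BafA1 gave log2 fold changes of 1.25 ± 0.69 in rich and 0.67 ± 0.63 in depleted medium. The depletion value was 1.66 ± 0.69 without drug and 1.08 ± 0.63 under BafA1. NOXO1 passed the threshold in none of the 5 comparisons, although depletion without drug passed at 2.51 without replicate 2 of the rich vehicle group. That depletion value also passed with the DESeq2 test (1.69), no low-count filter (1.65) and a replicate term (1.89). Its whole span of 2553 bases lies inside that of TBL3 on the opposite strand, which stood at 36.9 to 77.2 CPM. TBL3 fell on depletion without drug (log2 -0.65, adjusted p = 0.021 in edgeR) and rose with BafA1 in depleted medium (0.73, adjusted p = 0.027). No source used here gives the strand setting of the counting, and how far reads of NOXO1 and TBL3 were separated was not tested.

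DUOX2, the hydrogen peroxide-forming oxidase, was highest in depleted vehicle cells and lowest in rich vehicle cells. It had 17, 12.7 and 5.12 CPM in depleted BafA1 cells, 21.5, 29.7 and 19 CPM in depleted vehicle cells and 13.3, 12.9 and 16.6 CPM in rich BafA1 cells, against 6.99, 7.85 and 2.78 CPM in rich vehicle cells. The depleted vehicle libraries lay above all 9 others, the rich BafA1 libraries lay above all rich vehicle ones, and the depleted BafA1 group, with its replicate 3 at 5.12 CPM, overlapped both rich groups. The log2 fold change was 2.01 ± 0.41 for depletion without drug, and 1.29 ± 0.40 for BafA1 in rich medium, which missed the threshold. In depleted medium the BafA1 value had the opposite sign, -1.0 ± 0.39, also short of the threshold. Depletion under BafA1 gave -0.29 ± 0.39 and changed sign, to 0.07, without replicate 3 of the depleted BafA1 group. The rich-medium BafA1 value passed without replicate 2 of the rich vehicle group (1.61) and without replicate 1 (1.29) or 3 (1.30) of the depleted BafA1 group. It also passed with the DESeq2 test (1.26), no low-count filter (1.29), a replicate term (1.44) and the count table of the whole series (1.30). The depleted-medium BafA1 value passed with no low-count filter (-1.01) and with a replicate term (-1.09). Both calls thus depended on the processing. DUOX2 had fractional estimated counts in 5 of the 12 libraries, the same number as its near copy DUOX1, which had at most 6.16 estimated reads in any library.

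DUOXA2, the maturation factor, followed a related pattern at lower counts. It had 2.63, 1.61 and 0.864 CPM in depleted BafA1 cells, 3.19, 5.72 and 3.38 CPM in depleted vehicle cells and 5.77, 3.79 and 4.89 CPM in rich BafA1 cells, against 1.49, 2.55 and 2.46 CPM in rich vehicle cells. In CPM, every rich BafA1 and depleted vehicle library lay above every rich vehicle and depleted BafA1 library. BafA1 gave a log2 fold change of 1.13 ± 0.39 in rich medium, short of the threshold, and -1.25 ± 0.39 in depleted medium, past it. The rich-medium value passed with the DESeq2 test (1.11) and no low-count filter (1.13). Depletion gave 0.89 ± 0.39 without drug, short of the threshold, and -1.48 ± 0.39 under BafA1, past it. The depleted-medium BafA1 call was lost in 8 of the 12 fits that left out 1 library, with values of -0.93 to -1.72 over the 12, and it was kept without any 1 of the rich vehicle libraries or replicate 1 of the depleted BafA1 group. The call for depletion under BafA1 was lost without replicate 1 of the rich BafA1 group (-1.34) or replicate 2 (-1.44) or 3 (-1.18) of the depleted BafA1 group. Between 20 and 253 reads stood behind these values. DUOXA2 shares 1056 bases with DUOXA1 on the opposite strand, and DUOXA1 had at most 31 reads in any library.

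The BafA1 response of this gene pair thus had opposite signs in the media, and the difference itself, depleted minus rich, was -2.30 ± 0.56 for DUOX2 and -2.38 ± 0.55 for DUOXA2. For the other genes the difference was -1.18 ± 0.46 for NOXA1, -0.89 ± 0.47 for CYBA, -0.58 ± 0.93 for NOXO1 and -0.56 ± 0.47 for GPX2, none past the threshold. The DUOX2 call was lost without replicate 3 of the rich BafA1 group (-2.18), replicate 1 (-2.36) or 2 (-2.09) of the depleted vehicle group or replicate 2 of the depleted BafA1 group (-2.36). For DUOXA2 it was lost without replicate 1 of the rich BafA1 group (-2.23), replicate 2 of the depleted vehicle group (-2.06), or replicate 2 (-2.33) or 3 (-2.07) of the depleted BafA1 group. Without both libraries that stood apart the differences were -2.30 and -2.17, and neither was called. NOXA1 passed without replicate 2 of the rich vehicle group (-1.53), and CYBA passed with no low-count filter (-0.89).

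**Figure D2:**
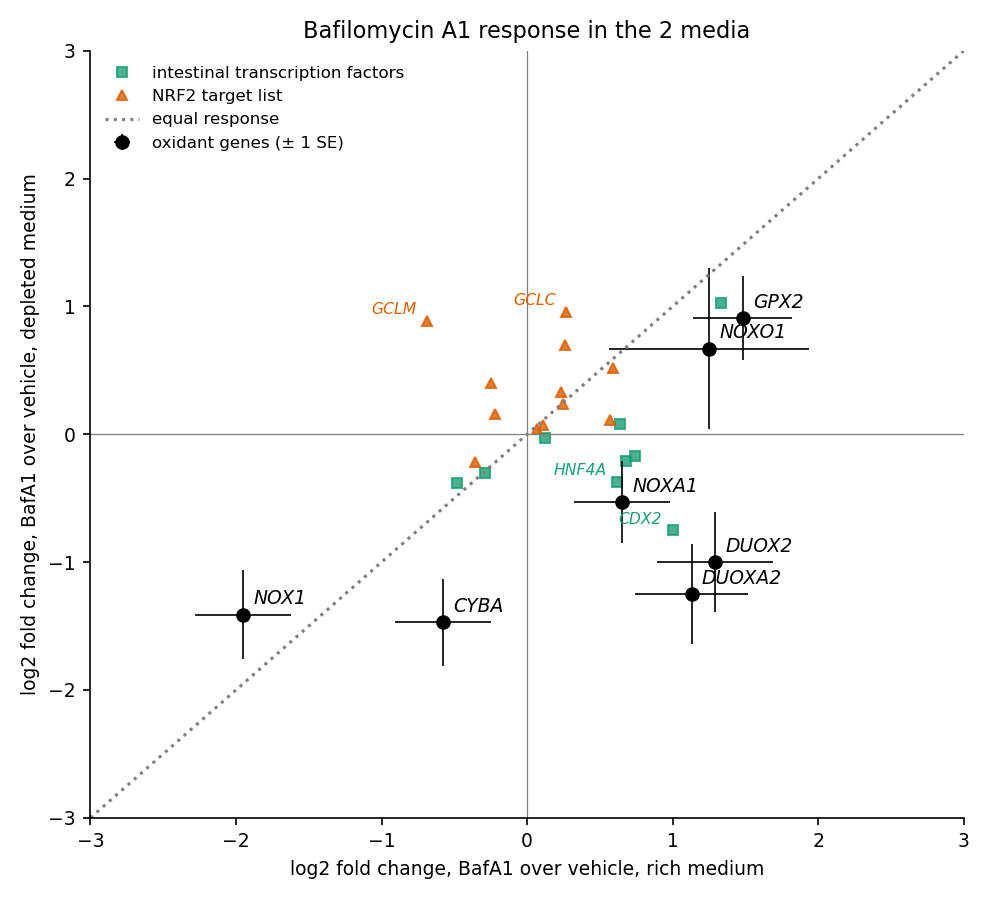
Log2 fold change of BafA1 over vehicle in depleted medium (vertical axis) against rich medium (horizontal axis) for the 7 oxidant genes (black, ± 1 SE), 9 intestinal transcription factors (green squares) and 12 genes of the NRF2 target list (orange triangles), with a dotted line of equal response. DUOX2 and DUOXA2 lie at positive values in rich and negative values in depleted medium, near CDX2, while NOX1 is negative in both.

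GPX2, the peroxide-reducing enzyme, was highest with BafA1. It had 68.1, 42.8 and 30.9 CPM in depleted BafA1 cells and 26.9, 25.5 and 22.8 CPM in depleted vehicle cells, so the drug libraries lay above all vehicle ones in that medium. In rich medium it had 118, 103 and 38.5 CPM with BafA1, against 31.2, 28.6 and 33.2 CPM with vehicle. In CPM, all drug libraries again lay above all vehicle ones, although rich BafA1 replicate 3, one of the libraries that stood apart, was close to the vehicle range. The log2 fold change of BafA1 was 1.48 ± 0.34 in rich medium, past the threshold, and 0.91 ± 0.33 in depleted medium, short of it. The rich-medium value was 1.20 without replicate 1 of the rich BafA1 group, where the call was lost, and the depleted-medium value passed without replicate 3 of the rich BafA1 group, at 0.91. A minimum fold of 1.5 also ended the rich-medium call. The depleted-medium value also passed with the DESeq2 test (0.92) and no low-count filter (0.91). With only the 6 libraries compared, or without both libraries that stood apart, it passed too, at 0.91 each. Depletion gave -0.30 ± 0.33 without drug and -0.87 ± 0.33 under BafA1. The second of these passed without replicate 3 of the rich BafA1 group (-1.22) or replicate 1 of the depleted BafA1 group (-1.23). It also passed with the DESeq2 test (-0.86), no low-count filter (-0.89), a replicate term (-0.84) and without both libraries that stood apart (-1.22). GPX2 lies within the span of CHURC1-FNTB on the opposite strand, which stood at 4.91 to 17.8 CPM and passed the threshold in none of the 5 comparisons.

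**Figure D3:**
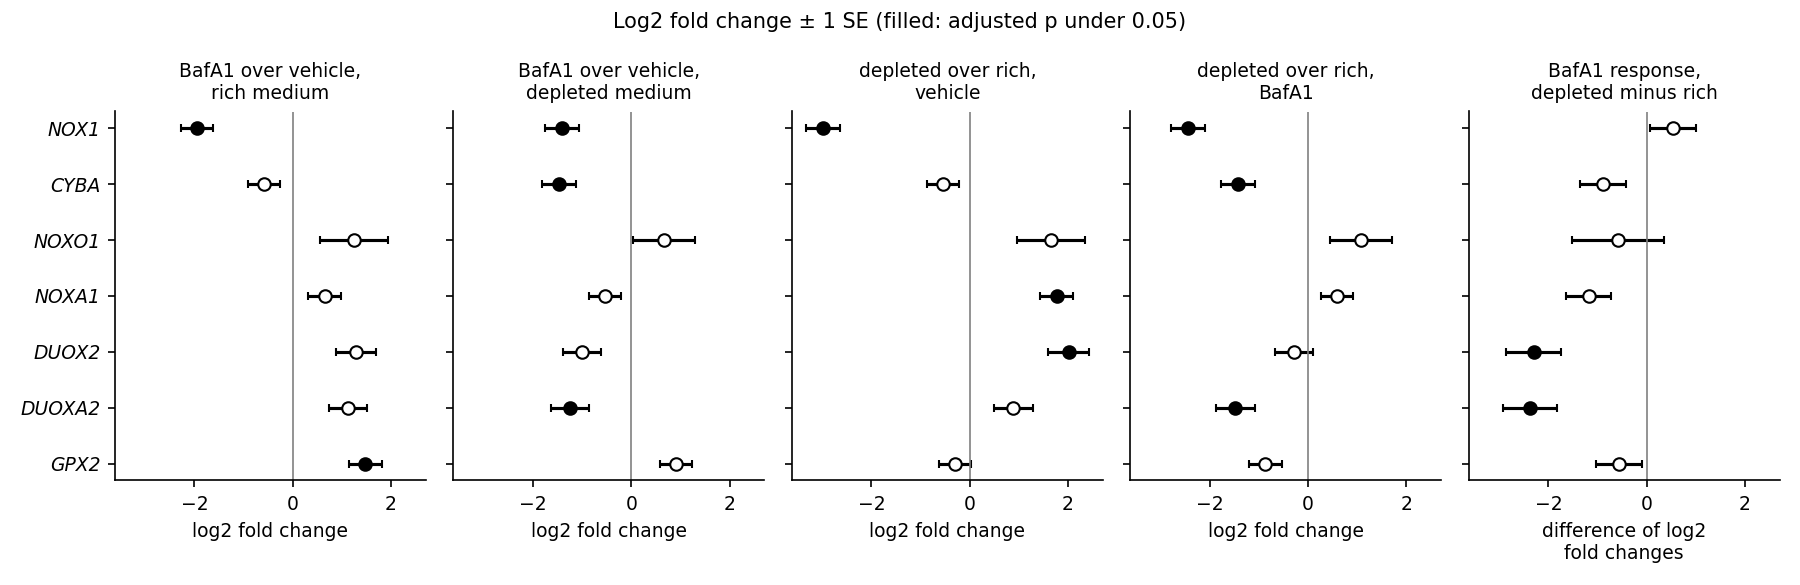
Log2 fold change ± 1 SE of the 7 genes in 4 comparisons and, in the right panel, the difference between the BafA1 responses in depleted and rich medium, with filled points past an adjusted p of 0.05 over all 18047 genes. NOX1 is filled in the 4 comparisons on the left, and DUOX2 and DUOXA2 are filled on the right.

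Counted over the 7 genes, BafA1 over vehicle in rich medium had 1 called higher and 1 called lower, where 6.15% of all 18047 genes were called higher and 4.78% lower. Depleted over rich medium without drug had 2 called higher and 1 lower, against 15.5% and 15.4% of all genes. BafA1 over vehicle in depleted medium had 0 called higher and 3 lower, against 5.5% and 5.91%. For depletion under BafA1 it was 0 higher and 3 lower, against 10.5% and 13.6%, and for the difference between BafA1 responses 0 higher and 2 lower, against 2.35% and 3.83%. The genes were selected on these contrasts, so nothing is read from these counts. Where a direction had 0 calls, the number at an unadjusted p under 0.05 was 1 higher for BafA1 in depleted medium, 0 higher for depletion under BafA1 and 0 higher for the difference, and DESeq2 called 1, 0 and 0. Each group of libraries enters 2 of the 4 direct comparisons, so these are not independent of each other. The median log2 fold change of the 7 was 1.13, 0.89, -1.0, -0.87 and -0.89 in the order above, beside 0.02, 0.04, -0.03, 0.01 and -0.05 over all genes.

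Levels of different genes were compared per transcript length, in the deposited TPM. In rich vehicle cells CYBA (162 to 335 TPM), GPX2 (37.4 to 77.8 TPM) and NOX1 (16.8 to 41.6 TPM) stood above NOXA1 (1.25 to 3.27 TPM), DUOXA2 (1.43 to 2.5 TPM), DUOX2 (0.363 to 1.95 TPM) and NOXO1 (0 to 0.195 TPM). Ratios of transcript levels between these genes also differed between the groups, which describes RNA of chosen genes and not oxidase protein or activity. The ratio of NOX1 to DUOX2 in TPM was 0.328 to 1.66 in depleted BafA1 cells, 0.488 to 0.934 in depleted vehicle cells and 1.47 to 3.66 in rich BafA1 cells, against 16 to 46.3 in rich vehicle cells. All 9 libraries of the other groups lay below the rich vehicle range. The ratio of NOX1 to its activator NOXA1 was 0.187 to 0.54 in depleted BafA1 cells, 0.29 to 0.673 in depleted vehicle cells and 1.15 to 3.07 in rich BafA1 cells, against 12.7 to 15.6 in rich vehicle cells. For NOX1 to CYBA it was 0.0232 to 0.0382, 0.0173 to 0.0308 and 0.039 to 0.0572 in the same order, against 0.0933 to 0.192 in rich vehicle cells. DUOX2 exceeded DUOXA2 in all 6 depleted-medium libraries, at 1.46 to 1.78 with BafA1 and 1.11 to 1.63 with vehicle, and was below it in all 6 rich-medium libraries, at 0.528 to 0.769 with BafA1 and 0.253 to 0.952 with vehicle. GPX2 over GPX1, the widespread glutathione peroxidase, was 0.853 to 2.21 in depleted BafA1 cells, against 0.567 to 0.918 in depleted vehicle cells. In rich medium it was 0.828 to 2.03 with BafA1, against 0.276 to 0.732 with vehicle. The order of group levels was the same in CPM and TPM except for CYBA and DUOX2, where neighbouring overlapping groups changed places, but for some genes the separation of groups depended on the scale. In TPM the rich vehicle libraries lay above all others for CYBA, and for DUOX2 the depleted BafA1 group, at 0.85 to 3.8 TPM, overlapped the depleted vehicle group, at 3.03 to 4.62 TPM. For GPX2 the rich BafA1 libraries, at 53.5 to 190 TPM, overlapped the rich vehicle libraries, at 37.4 to 77.8 TPM. For DUOXA2 the depleted vehicle libraries, at 2.35 to 4.15 TPM, overlapped the rich vehicle libraries, at 1.43 to 2.5 TPM, and the depleted BafA1 libraries, at 0.581 to 2.37 TPM, overlapped the depleted vehicle ones.

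**Figure D4:**
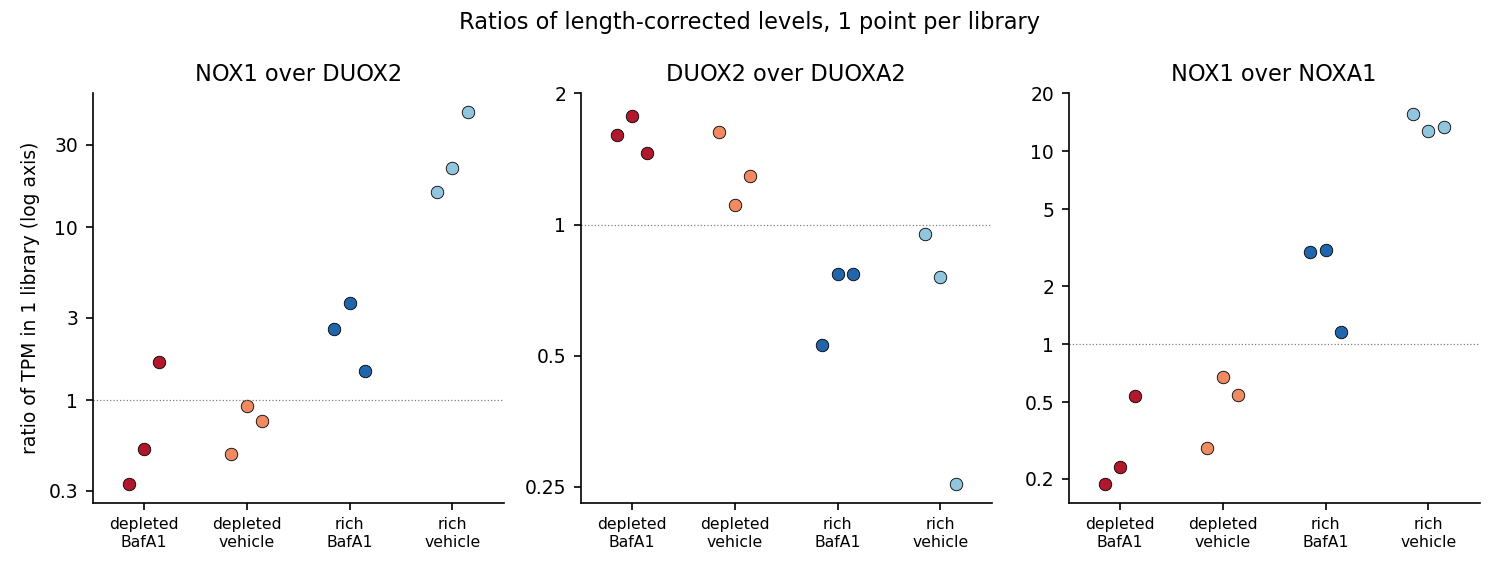
Ratios of deposited TPM between gene pairs in each library (log axes), with 3 points per group and a dotted line at 1. NOX1 over DUOX2 and NOX1 over NOXA1 are highest in rich vehicle cells, at 16 to 46.3 and 12.7 to 15.6, and DUOX2 over DUOXA2 lies above 1 only in the depleted-medium libraries.

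Much of the rest of the NADPH oxidase family was sparse in these cells. Of 15 other genes, 7 passed the filter, and NOX3, NOX4, CYBB and NCF1 were among those that did not, with NCF4 at 0 reads in every library. SH3PXD2A, an adaptor related to the NOX organizers, rose to 26.1 ± 3.78 CPM in rich BafA1 cells, against 6.93 ± 3.78 CPM in rich vehicle cells (SD, n = 3 each; log2 1.87, adjusted p = 0.0017 in edgeR), and to 23.9 ± 3.01 CPM in depleted vehicle cells (1.75, adjusted p = 0.00054). Its paralogue SH3PXD2B fell to 12.9 ± 2.76 CPM in depleted BafA1 cells, against 30.5 ± 6.41 CPM in depleted vehicle cells (-1.24, adjusted p = 0.0067 in edgeR) and 54.4 ± 17.3 CPM in rich BafA1 cells (-2.08, adjusted p = 9.5e-05). RAC1, the GTPase that NOX1 needs, was at 117 ± 7.75 CPM in depleted vehicle cells and 169 ± 20.7 CPM in rich vehicle cells (-0.53, adjusted p = 0.024 in edgeR), a call lost without replicate 1 or 3 of the rich vehicle group (-0.48 each) or replicate 1 (-0.54) or 2 (-0.48) of the depleted vehicle group. Over this list 1 gene was called higher and 0 lower with BafA1 in rich medium, 1 and 1 on depletion without drug, 0 and 1 with BafA1 in depleted medium, 0 and 2 on depletion under BafA1, and 0 and 1 for the difference between BafA1 responses. Over all genes, in the same order, 6.15% were higher and 4.78% lower, 15.5% and 15.4%, 5.5% and 5.91%, 10.5% and 13.6%, and 2.35% and 3.83%. Nothing is read from counts this small.

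Genes that remove peroxide and superoxide were mostly lower in depleted medium. On depletion without drug 11 of 20 fell and 2 rose, with a list median of -0.53 against 0.04 over all genes, of which 15.4% fell. PRDX1, an abundant peroxiredoxin, was at 142 ± 10.8 CPM in depleted vehicle cells and 388 ± 71.4 CPM in rich vehicle cells (-1.45, adjusted p = 0.00022 in edgeR). TXN, the thioredoxin that recycles peroxiredoxins, had a log2 fold change of -1.44 (adjusted p = 0.0006 in edgeR) and the secreted peroxidase GPX3 one of -1.22 (adjusted p = 0.00021). The count of 11 became 7 without replicate 3 of the rich vehicle group or replicate 1 of the depleted vehicle group. Depletion under BafA1 gave 11 of 20 lower and 0 higher, where 13.6% of all genes fell and 10.5% rose. This count of 11 became 6 without replicate 1 or 2 of the rich BafA1 group and 7 without replicate 1 or 2 of the depleted BafA1 group. With BafA1 over vehicle, 1 of 20 was called lower in rich medium, where 4.78% of all genes fell. In depleted medium it was 2 of 20, against 5.91% of all genes. There, extracellular SOD3 was at 0.649 ± 0.253 CPM in depleted BafA1 cells and 2.55 ± 0.791 CPM in depleted vehicle cells (-1.95, adjusted p = 0.012 in edgeR, lost without replicate 2 of the depleted vehicle group or replicate 3 of the depleted BafA1 group, -1.67 each).

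The NRF2 target list, which GPX2 was not part of, was called in part with BafA1 in depleted medium. In rich medium 0 of 12 passed in edgeR, where 6.15% of all genes rose and 4.78% fell. Of the 12, 3 had an unadjusted p under 0.05 (2 higher and 1 lower), DESeq2 called 2, and the median was 0.17. In depleted medium 3 of 12 rose with BafA1 and 0 fell, with a median of 0.29, where 5.5% of all genes rose and 5.91% fell, and 0 fell by an unadjusted p or by DESeq2. GCLC, the catalytic subunit of glutathione synthesis, rose to 207 ± 1.87 CPM in depleted BafA1 cells, against 106 ± 4.95 CPM in depleted vehicle cells (0.96, adjusted p = 0.00062 in edgeR), and UGDH rose with it (0.70, adjusted p = 0.0041). GCLM, the modifier subunit, was at 37 ± 4.41 CPM in depleted BafA1 cells and 20 ± 1.71 CPM in depleted vehicle cells (0.89, adjusted p = 0.032 in edgeR), a call lost without any 1 of the depleted vehicle libraries or replicate 2 or 3 of the depleted BafA1 group (0.84 to 0.97). Depletion without drug gave 4 of 12 higher and 6 lower, where 15.5% of all genes rose and 15.4% fell. Those of the list included the cystine carrier SLC7A11 (0.96, adjusted p = 0.0034 in edgeR) and the NADPH-forming enzyme ME1 (-0.96, adjusted p = 0.0014). The count of 4 fell to between 1 and 3 in each fit that left out 1 library.

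Of 17 other selenoprotein genes and selenium handlers, 2 rose and 7 fell on depletion without drug, with a median of -0.38, where 15.5% of all genes rose and 15.4% fell. Under BafA1 depletion gave 4 higher and 4 lower with a median of -0.16, where 10.5% of all genes rose and 13.6% fell. The 4 higher became 2 without replicate 1 or 2 of the rich BafA1 group or replicate 3 of the depleted BafA1 group. SELENOP, which carries selenium, rose to 283 ± 14 CPM in depleted vehicle cells, against 50.4 ± 17.8 CPM in rich vehicle cells (2.50, adjusted p = 0.00018 in edgeR), whereas SELENOT fell (-1.22, adjusted p = 6.6e-05) and so did SELENOW (-1.44, adjusted p = 0.0036). The 7 lower without drug became 4 without replicate 1 of the depleted vehicle group. TXNRD1, TXNRD2, GPX1, GPX3 and GPX4 are also in the peroxide list. Of 16 inflammatory genes of epithelium, a programme in which DUOX2 is known to be induced, 10 passed the filter. On depletion without drug 0 of these rose and 3 fell, where 15.5% of all genes rose and 15.4% fell. The 3 were NOS2, the inducible nitric oxide synthase, at 7.96 ± 1.38 CPM against 38.2 ± 8.39 CPM in rich vehicle cells (-2.27, adjusted p = 9e-05 in edgeR), BIRC3 (-1.29, adjusted p = 0.0041) and TNFAIP3 (-1.0, adjusted p = 0.0015). Depletion under BafA1 gave 4 of 10 lower, where 13.6% of all genes fell. That count was 2 without replicate 2 of the rich BafA1 group or replicate 2 or 3 of the depleted BafA1 group, and 6 without both libraries that stood apart. With BafA1 0 of the 10 passed in either medium in edgeR, and there were also 0 by DESeq2 and 0 by an unadjusted p under 0.05. Of all genes, 6.15% rose and 4.78% fell in rich medium, and 5.5% rose and 5.91% fell in depleted medium.

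Transcription factors of the intestinal epithelium were called in both directions. On depletion without drug 4 of 9 rose and 1 fell, with a list median of 0.77, where 15.5% of all genes rose, led by HNF4G (1.67, adjusted p = 0.0008 in edgeR), KLF4 (1.59, adjusted p = 9e-05) and the homeodomain factor CDX2 (0.93, adjusted p = 0.01). With BafA1 in rich medium 4 of 9 rose, against 6.15% of all genes. Among the 4 were KLF4 (1.33, adjusted p = 0.0016 in edgeR), CDX2 (1.00, adjusted p = 0.018) and KLF5 (0.64, adjusted p = 0.043). That count was 1 without both libraries that stood apart or without replicate 2 or 3 of the rich BafA1 group, and 2 without replicate 1 of the rich vehicle or depleted vehicle group. The CDX2 call was lost without replicate 1 of the rich vehicle group (0.75) or replicate 2 (0.87) or 3 (0.95) of the rich BafA1 group and without both libraries that stood apart (0.70), as was the KLF5 call (0.81), which was also lost in 9 of 12 fits that left out 1 library (0.48 to 0.74 over the 12). Depletion under BafA1 gave 1 of 9 higher and 2 lower with a median of -0.22, where 10.5% of all genes rose and 13.6% fell. KLF4 was higher (1.30, adjusted p = 0.00038 in edgeR) and CDX2 lower (-0.82, adjusted p = 0.024). The 2 lower became 1, with the CDX2 call lost (-0.69 to -0.79), without replicate 2 or 3 of the depleted BafA1 or rich BafA1 group, and the 1 higher became 2 without replicate 3 of the rich BafA1 group and 3 without both libraries that stood apart. In depleted medium KLF4 rose with BafA1 (1.03, adjusted p = 0.0041 in edgeR). CDX2 was at 80.4 ± 8.08 CPM in depleted BafA1 cells and 135 ± 17.5 CPM in depleted vehicle cells (-0.75, adjusted p = 0.061 in edgeR). In rich medium it was at 142 ± 29.3 CPM with BafA1 and 70.8 ± 29.9 CPM with vehicle. The BafA1 response differed between the media, depleted minus rich, for CDX2 (-1.74, adjusted p = 0.011 in edgeR) and HNF4A (-0.99, adjusted p = 0.028), with 0 of the 9 higher by edgeR, by DESeq2 or by an unadjusted p under 0.05. For that difference 2.35% of all genes were called higher and 3.83% lower. The HNF4A call was lost in 6 of 12 fits that left out 1 library and without both libraries that stood apart (-0.89). CDX2 is also one of the 8 epithelial markers. Peroxidases that use hydrogen peroxide at mucosal surfaces were sparse, with 1 of 5 past the filter. It was called in 0 comparisons by edgeR or DESeq2 and had an unadjusted p under 0.05 in 1.

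Across the 12 libraries, the genes whose log2 CPM followed each oxidant gene most closely were sought among 13331 genes, as a description in which the libraries share their medium and drug. For NOX1 these were the endonuclease-domain gene ENDOD1 and the lysosomal protease CTSC (Pearson r = 0.99 each) and the CTP synthase CTPS1 (r = 0.98). CTSC was at 52.9 ± 3.59 CPM in depleted BafA1 cells, 104 ± 20 CPM in depleted vehicle cells, 150 ± 29.9 CPM in rich BafA1 cells and 328 ± 42.2 CPM in rich vehicle cells. DUOX2 was followed by DENND3 (r = 0.94) and by MOGAT3 and AMIGO2 (0.93 each), and MOGAT3, an acyltransferase of triglyceride synthesis in the gut, was at 5.2 ± 2.57 CPM in depleted BafA1 cells, 12.6 ± 1.34 CPM in depleted vehicle cells, 7.17 ± 2.04 CPM in rich BafA1 cells and 3.3 ± 1.39 CPM in rich vehicle cells. DUOXA2 was followed by SLC9A3R2 (0.92), ADAM8 (0.91) and SOD3 (0.89). For GPX2 the closest was ACSS2, the cytosolic acetyl-CoA synthetase (0.94), with HCN2 and BHLHE40 at 0.89 each, and ACSS2 was at 183 ± 39.2 CPM in depleted BafA1 cells and 71 ± 2.09 CPM in depleted vehicle cells, and at 246 ± 92.9 CPM in rich BafA1 cells and 87.8 ± 2.32 CPM in rich vehicle cells. NOXA1 was followed by ABCC6 (0.98), LCN12 and DNASE1 (0.97 each), NOXO1 by TJAP1, SMPD3 and MYL5 (0.96 each) and CYBA by FAM151A (0.97), PTK7 and ADM-DT (0.96 each).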

How the data were processed

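Total RNA of each library was depleted of ribosomal RNA and prepared with a stranded kit, per the labels' protocols. DRAGEN and GRCh38 are named in the submitters' processing notes, without version or role, and no source used here gives the annotation release or strand setting. The deposited tables give, per the file headers, an estimated count of reads and a TPM value for 54553 genes, and 5.08% of the estimated counts are not whole. Gene length and effective length, a score in bases, were also deposited. Whole counts of 13518 genes, as deposited in 1 table for the whole series, served as an alternative. Estimated counts were rounded, filtered with filterByExpr (minimum count 10, minimum total 15), scaled by TMM and fitted with edgeR 4.0.16 in R 4.3.3 (1 mean per group, robust quasi-likelihood, 8 residual degrees of freedom). Standard errors are the log2 fold change over the root of the F statistic. Promoter and gene coordinates come from RefSeq on GRCh38.p14. The 7 genes, the other gene lists and the alternatives were chosen with earlier results of these data known. Some genes of the transcription factor list are not reported here and are left out of its counts. From each list, at most 3 called genes of at least 1 CPM with the largest fold changes could be named per comparison, all 7 oxidant genes were described in all 5 comparisons, and the 3 most similar genes were named for each; TBL3, ENTPD8 and other genes that overlap an oxidant gene were named for their position, and epithelial markers beside the result they touch. Alternatives were DESeq2 1.42.0 size factors and test, no low-count filter, only the 6 libraries compared, a replicate block, the series-wide table, a minimum fold of 1.5, and omitted libraries.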

Additional observations from a re-analysis of the deposited data

Results flagged for a closer look

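These results are given because the BafA1 response, depleted minus rich medium, passed the test of the difference itself in edgeR. On the log2 scale the difference was -2.30 for DUOX2 and -2.38 for DUOXA2, each lost in 4 of the 12 fits without 1 library, and neither gene was independent of the choice of genes. Among transcription factors it was -1.74 for CDX2, kept in each of those 12 fits, and -0.99 for HNF4A, lost in 6. SOD3 had -2.73, lost in 3, and the adaptor SH3PXD2B -1.42, lost in 7. The glutathione synthesis genes GCLM and GCLC had 1.57, lost in 2, and 0.69, lost in 10. SELENOK, a selenoprotein of the endoplasmic reticulum, had 0.93, lost in 9. Without both libraries that stood apart, the calls for DUOX2 (-2.30), DUOXA2 (-2.17), HNF4A (-0.89), GCLC (0.58) and SELENOK (1.00) were lost.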

How the results depend on the processing

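Of the values of the 7 genes under the alternatives, 616 kept their direction and side of the threshold, 34 passed where they had not, 36 no longer passed and 2 changed sign. The sign changed for DUOX2 in depletion under BafA1 without replicate 3 of the depleted BafA1 group (0.07; -0.67 to 0.07 over the fits without 1 library) and for NOXO1 in the difference between BafA1 responses without both libraries that stood apart (0.22). NOX1 kept its calls for BafA1 in rich medium and for depletion, with and without drug, in every fit without 1 library. The number of the 7 genes called was 2 for BafA1 in rich medium, 3 for depletion without drug, 3 for BafA1 in depleted medium, 3 for depletion under BafA1 and 2 for the difference. With no low-count filter the first 3 of these became 5, 5 and 5, and the DESeq2 test gave 4 for BafA1 in rich medium. A minimum fold of 1.5 gave 1 for BafA1 in rich medium, 0 for BafA1 in depleted medium, 1 for depletion under BafA1 and 0 for the difference, which was also 0 without both libraries that stood apart. Leaving out 1 library gave 1 to 3, 3 to 4, 0 to 3, 2 to 4 and 0 to 3. The cause of these moves was not tested. NOXO1 is not in the series-wide table. Whether the replicate numbers pair the libraries was not settled. Same-numbered libraries deviated from their group means with correlations of -0.0811 to 0.294, and 10 of 12 correlated best with their own number. The main fit treated the libraries as unpaired. With the replicate block the counts were 3, 4, 4, 4 and 2. Over all genes, 1971 calls for BafA1 in rich medium became 2990 with DESeq2, 496 with only the 6 libraries compared, 213 with the minimum fold and 1010 without both libraries that stood apart, and the 2058 for BafA1 in depleted medium became 4258, 262 and 3444 under the last 3 of these. Depletion had 5577 calls without drug and 4351 under BafA1, and 1890 and 1103 with the minimum fold. The difference had 1116, against 2094 with DESeq2, 1791 with no filter, 1969 with the block and 139 with the minimum fold.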
